A study of Mus musculus with 12 samples.

Results

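The genes described here separated the mouse lung adenocarcinoma lines KC2 and KC3, whose arrays carried Cdkn2b transcript, from the lines KC1 and KC4, whose arrays did not. A gene belonged to this split where both the KC2 and the KC3 mean lay above, or both lay under, both the KC1 and the KC4 mean by at least 1 log2 unit. The rule chose 140 of 18193 genes (0.77%), of which 32 (0.176% of all genes) were higher and 108 (0.594%) lower in KC2 and KC3. Because the rule was applied to these same 12 arrays, and the division of the lines was itself read from the Cdkn2b signal, the sizes below describe the members and were not tested. Genes named beyond the largest gaps and the gene lists were chosen by role after their values were seen. The genes lower in KC2 and KC3 included both activin beta subunits, Inhba and Inhbb, 7 genes of actin, myosin and intermediate filaments, the metalloprotease Adam19 and the necroptosis kinase Ripk3. Those higher in KC2 and KC3 included the junction protein Tmem47 and the transcription factors Tfap2a, Zic5 and Esr1.

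All 4 lines came from lung tumours of mice with the genotype K-rasLA1/+; Cdkn1a-/- on a background the labels give as 127s, and were grown in RPMI medium with 10% FBS. K-rasLA1 is a latent allele of the oncogene that becomes active by spontaneous recombination in single cells, and Cdkn1a encodes the cell cycle inhibitor p21. The study set lines from highly metastatic tumours against those from poorly metastatic ones, and by that label KC1, KC2 and KC3 were highly and KC4 poorly metastatic. The split therefore ran across the metastatic label, with highly metastatic lines on both sides. Each line was hybridised to 3 arrays that the labels call biological replicates. The labels name 6 tumours from 4 animals as the sources without assigning lines to them, and each line is a single derivation, so 2 lines stood on each side whatever the number of arrays.

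Cdkn2b encodes an inhibitor of the INK4 family, which binds the cyclin D-dependent kinases Cdk4 and Cdk6 and holds cells before S phase. Its transcription is induced by TGF-beta in epithelial cells. It lies beside Cdkn2a, which encodes the INK4 inhibitor p16 and, in another reading frame, the ARF protein, and the segment that holds both is often deleted in tumours, in many cases together with the neighbouring gene Mtap, an enzyme that salvages adenine and methionine. Loss of these genes removes a brake on cells driven by oncogenic Ras, lung adenocarcinoma among them.

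Signals are the authors' scaled linear intensities, in which every array has a trimmed mean of 500. They were set to no less than 16, the floor, before log2 was taken, so the lowest possible log2 signal is 4.00. The gap of a gene is the difference between the nearest pair of line means from opposite sides, and is positive where KC2 and KC3 were higher. A gene's value comes from its probe set with the highest mean log2 signal, and probe sets of different genes are not compared in level. Arrays of the same line correlated at Spearman 0.98 to 0.983 over probe sets and arrays of different lines at 0.941 to 0.963. The lung epithelial marker list (8 genes, among them Cdh1, Epcam and Krt8) summed to between 77180 and 112653 per array. The 10 fibroblast markers summed to between 478 and 790, the 7 lymphocyte markers to between 279 and 401, the 8 endothelial markers to between 419 and 622 and the 10 myeloid markers to between 1415 and 1903. Pdgfrb, C1qa, Tie1 and Vwf were at the floor on every array, and no marker gene of these lists met the rule. The probe set of Cdkn1a read 5898 ± 504 (SD, n = 3) for KC2 and 6721 ± 507 for KC3 against 7797 ± 457 for KC1 and 4355 ± 478 for KC4, in lines all labelled Cdkn1a-/-. No source used here places that probe set inside or outside the deleted part, so it does not check the genotype. The 5′ probe set for 18S RNA read 3305 ± 935 in KC4 and between 414 and 605 on average in the other lines. The log2 ratio of the 3′ to the 5′ control probe sets, a sign of RNA quality, was higher for Actb in KC2 (0.17) and KC3 (0.16) than in KC1 (0.04) and KC4 (0.06), but for Gapdh slightly lower in KC2 (-0.33) and KC3 (-0.39) than in KC1 (-0.32) and KC4 (-0.33). The part of RNA quality in the results was not tested.

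At the floor of 16, Cdkn2b had the largest gap of all members. Its signal was 1505, 1443 and 1428 (KC2) and 1467, 1442 and 1438 (KC3) against 23.9, 14.6 and 14.6 (KC1) and 11.8, 21.8 and 27.8 (KC4). All 6 arrays of KC2 and KC3 lay within 1428 and 1505, while no array of KC1 or KC4 exceeded 27.8, close to the floor. In log2 terms the line means were 10.51 ± 0.04 (KC2) and 10.50 ± 0.02 (KC3) against 4.19 ± 0.34 (KC1) and 4.41 ± 0.40 (KC4) (mean ± SD of 3 arrays, as in all values of this form), and the gap was 6.09, or 67.9-fold. KC1 and KC4 were partly at the floor, so this fold depends on the floor. With a floor of 64 the gap was 4.501, and that of Tmem47, the member with the next largest gap, was the larger at 5.096.

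The neighbours of Cdkn2b did not share its pattern. Mtap, measured by 4 probe sets, ran the opposite way on each of them. Its signal was 3987, 4067 and 3817 (KC2) and 3345, 3327 and 3078 (KC3) against 8388, 8618 and 8762 (KC1) and 15670.4, 13356 and 14806 (KC4), and every array of KC2 and KC3 lay below every array of KC1 and KC4. The gap of this probe set was -1.12, and the other 3 gave -1.18, -1.10 and -1.23. Cdkn2a, which lies between Mtap and Cdkn2b in the gene order of the reference table, was high in KC2 alone, at 382 ± 3.28 against 39.5 ± 5.59 in KC1, 31.7 ± 6.71 in KC3 and 71.6 ± 2.18 in KC4. Dmrta1, the gene on the far side of Cdkn2b, had line means between 10.2 and 19.9, at or near the floor in all lines. Cdkn2a and Cdkn2b were each measured by a single probe set. Transcripts of Mtap and Cdkn2a thus followed different patterns over the lines, and Dmrta1 gave too little signal to show one.

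**Figure D1:**
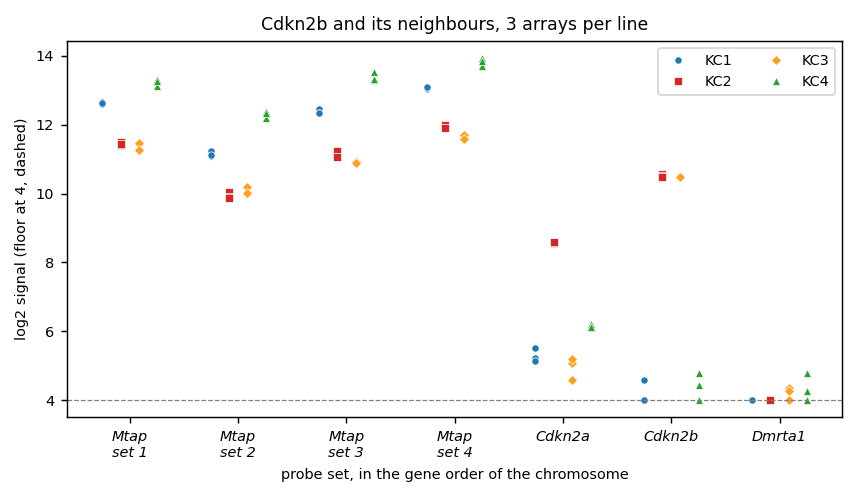
Log2 signal (y axis) of Mtap (4 probe sets), Cdkn2a, Cdkn2b and Dmrta1 (x axis, in chromosome order), 1 point per array and 3 arrays per line, with the floor of 4 dashed. Cdkn2b stood near 10.5 in KC2 and KC3 and near the floor in KC1 and KC4, all Mtap probe sets were lower in KC2 and KC3, and Cdkn2a was high in KC2 alone.

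The promoter windows of Cdkn2b and Mtap, which moved in opposite directions, are shown with that of Tmem47. Each runs from 250 bases before the annotated start to 30 bases after it, 5′ to 3′ along the gene, and comes from the RefSeq tables on build GRCm38.p6. Capitals mark matches to the motifs searched on both strands (GCCNNNGGC for AP-2, TGANTCA for AP-1, GGAATG for TEAD, TATAAA for the TATA box, CCAAT for its box, and by name the CArG box and the full palindromic estrogen response element). The Cdkn2b window lies at chr4:89311003-89311282 on the minus strand, the Mtap window at chr4:89137120-89137399 on the plus strand and the Tmem47 window at chrX:81070394-81070673 on the plus strand.
Cdkn2b: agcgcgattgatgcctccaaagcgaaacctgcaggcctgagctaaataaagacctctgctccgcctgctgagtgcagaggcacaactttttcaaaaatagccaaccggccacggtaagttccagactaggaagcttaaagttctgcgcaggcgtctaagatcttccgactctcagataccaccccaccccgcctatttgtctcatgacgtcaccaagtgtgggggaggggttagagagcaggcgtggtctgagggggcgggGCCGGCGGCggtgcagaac
Mtap: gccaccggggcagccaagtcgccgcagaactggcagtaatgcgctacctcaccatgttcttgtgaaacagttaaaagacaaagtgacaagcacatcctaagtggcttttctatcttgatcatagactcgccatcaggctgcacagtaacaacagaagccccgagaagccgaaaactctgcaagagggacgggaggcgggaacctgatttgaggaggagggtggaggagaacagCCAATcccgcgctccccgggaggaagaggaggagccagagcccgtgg
Tmem47: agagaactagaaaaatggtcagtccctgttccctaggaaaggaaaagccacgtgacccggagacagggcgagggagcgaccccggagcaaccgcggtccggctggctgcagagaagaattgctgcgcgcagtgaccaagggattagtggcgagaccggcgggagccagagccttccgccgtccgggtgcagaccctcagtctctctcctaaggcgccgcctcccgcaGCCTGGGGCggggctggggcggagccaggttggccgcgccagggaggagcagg
The Cdkn2b window held the AP-2 match GCCGGCGGC, which begins at base 12 after the start, and the Tmem47 window held GCCTGGGGC, which begins 23 bases before it. The Mtap window held a CCAAT box that begins 17 bases before the start. The 3 windows held 16, 13 and 23 CpG dinucleotides. These matches describe letters in the windows and not binding.

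Among the 20 measured genes of the list of CDK inhibitors and their partners, Cdkn2b, by which the lines were divided, was the only member higher. Mtap was the only member lower in KC2 and KC3. The share of all genes that met the rule was 0.176% for higher and 0.594% for lower. The median difference of the list (mean of KC2 and KC3 minus mean of KC1 and KC4) was -0.35, against 0.00 over all genes. Its median log2 signal did not separate the sides, at 10.48 (KC2) and 9.91 (KC3) against 10.35 (KC1) and 10.98 (KC4). Cdk6, a kinase that Cdkn2b inhibits, was ordered the same way as Cdkn2b but under the minimum, with a gap of 0.70 and signals of 6213 ± 161 (KC2) and 6682 ± 308 (KC3) against 3156 ± 49.0 (KC1) and 3835 ± 107 (KC4). Ccne2, a cyclin of the G1/S step, was ordered the opposite way with a gap of -0.88, and Rbl1, a pocket protein of the retinoblastoma family, with a gap of -0.58. The inhibitors Cdkn2c and Cdkn2d had gaps of -0.22 and -0.20, Cdkn1b one of -0.05, and the lines of the sides overlapped for Cdkn1a, Cdkn1c, Cdk4, Ccnd1, Ccnd2 and Ccnd3. Cdk2 had a gap of -0.29, with 1602 ± 394 (KC2) and 1372 ± 243 (KC3) against 1919 ± 58.6 (KC1) and 2189 ± 191 (KC4). None of the 24 DNA replication and G1/S genes met the rule. Of them, 14 had both KC2 and KC3 under both KC1 and KC4 by some amount, an order that 14.9% of all genes had. The list's median difference was -0.44. Its median log2 signal was 11.65 (KC2) and 10.83 (KC3) against 11.61 (KC1) and 11.67 (KC4), so by this median KC3 alone stood lower.

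Tmem47, a tetraspan protein of cell junctions in the claudin-like group, had the next largest gap after Cdkn2b at the floor of 16 and the largest with a floor of 64. Its signal was 4245, 4420.1 and 4685 (KC2) and 3504, 3425 and 3412 (KC3) against 123, 83.6 and 99.8 (KC1) and 10.4, 6.03 and 1.58 (KC4). KC4 was at the floor on all 3 arrays and KC1 above it, and the KC2 and KC3 arrays exceeded both without overlap. The gap was 5.10, set by KC1, and a further probe set of the gene gave 5.05. Mcam, an adhesion molecule of the immunoglobulin family, was also higher, with a gap of 1.77 and line means of 7.96 ± 0.40 (KC2) and 7.86 ± 0.17 (KC3) against 5.74 ± 0.11 (KC1) and 6.09 ± 1.07 (KC4). The spread among KC4 arrays was the widest of the 4 lines for this gene.

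**Figure D2:**
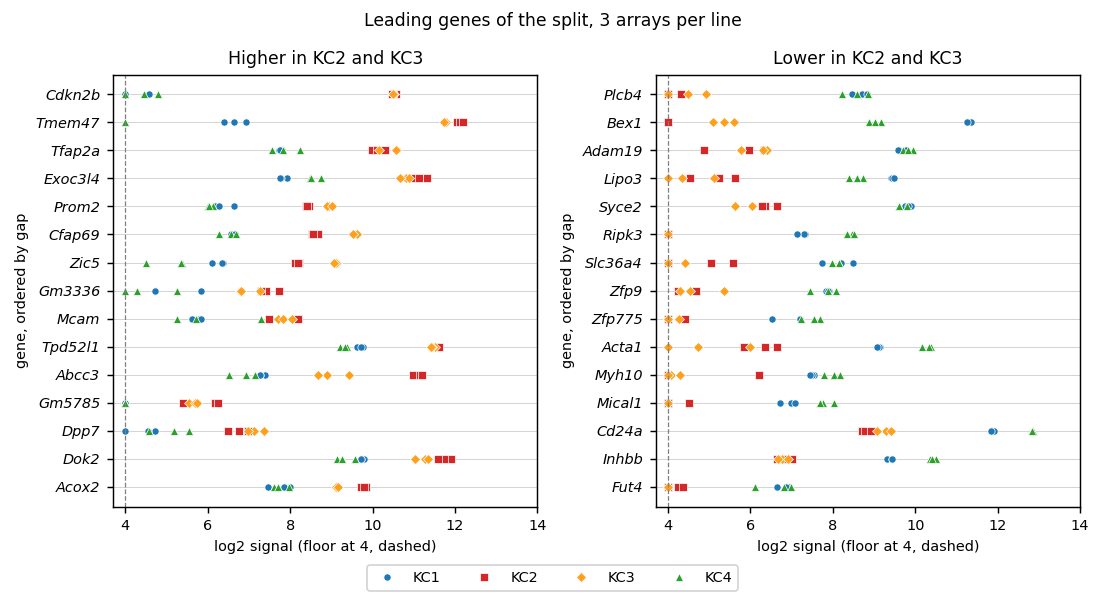
Log2 signal per array (x axis, floor of 4 dashed) of the 15 genes with the largest gap in each direction (y axis), with 3 points per line. Arrays of KC2 and KC3 stand together on the right for Cdkn2b and Tmem47 and on the left for Plcb4 and Ripk3. For Abcc3, Zic5, Cfap69 and Bex1 the arrays of KC2 and KC3 also stand apart from each other.

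Adhesion and matrix genes other than Tmem47 and Mcam were lower in KC2 and KC3, 6 of the 8 members with such roles. Of all 140 members 108 were lower, and the counts by role here and below are to be read beside that share. The roles were assigned after the members were seen, so these counts do not set any role apart. Adam19, a membrane metalloprotease that sheds growth factors, gave 80.2, 29.2 and 62.3 (KC2) and 84.8, 78.5 and 54.9 (KC3) against 784, 880.0 and 772 (KC1) and 988, 838 and 899 (KC4). No array of KC2 or KC3 exceeded 84.8 and none of KC1 or KC4 was under 772, which made a gap of -3.50, and the gene's further probe set gave -1.57. Cd24a, a glycosylphosphatidylinositol-anchored surface glycoprotein, gave 420.1, 439 and 489 (KC2) and 629.6, 537 and 676 (KC3) against 3728, 3877 and 3678 (KC1) and 7363, 7354 and 7295 (KC4). Its 3 probe sets gave gaps of -2.62, -2.75 and -2.39, and the KC4 arrays were higher than those of KC1. Nt5e, the ectonucleotidase that makes extracellular adenosine, had a gap of -1.50, the protocadherin Pcdh19 -1.47, the P-cadherin gene Cdh3 -1.06 and the basement membrane collagen Col15a1 -1.04. Col15a1 fell under the minimum with every change of floor and scaling (0.08 with a floor of 64) and Cdh3 with a floor of 64 (0.01) and with log2(signal + 16) (0.76), and the other probe set of Cdh3 did not separate the sides. A further probe set of Nt5e gave -2.20 and a last one did not separate the sides. Of the 42 measured genes of the epithelial adhesion and identity list, Cdh3 alone met the rule, and of the 28 mesenchymal genes Vim and Nt5e did, all in the lower direction. The median differences of these lists were 0.19 and 0.00.

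Ligands, an antagonist and a target of the TGF-beta family made 4 members, all lower in KC2 and KC3. Activins are dimers of inhibin beta subunits that signal through type I and type II serine/threonine kinase receptors to Smad2 and Smad3, and follistatin and the follistatin-like protein Fstl3 bind and neutralise them. Inhba, which encodes the beta A subunit, gave 75.3, 89.9 and 107 (KC2) and 127, 109 and 23.8 (KC3) against 689.7, 557 and 565 (KC1) and 421, 448 and 385 (KC4). Its KC1 and KC4 arrays were all at least 385 and its KC2 and KC3 arrays at most 127, with 1 KC3 array far under the other two. Inhbb, which encodes the beta B subunit, gave 128, 111 and 101 (KC2) and 109, 120.0 and 103 (KC3) against 641, 687 and 690.4 (KC1) and 1454, 1316 and 1354 (KC4). KC4 was higher than KC1 here, and no KC2 or KC3 array exceeded 128. The gaps were -2.22 for Inhba and -2.58 for Inhbb, whose further probe set gave only -0.31 with lines at 7.49 (KC2) and 6.80 (KC3) against 7.81 (KC1) and 8.18 (KC4).

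The promoter windows of both activin subunits, which were lower together, are shown on the same build and in the same form, Inhba at chr13:16011601-16011880 on the plus strand and Inhbb at chr1:119422219-119422498 on the minus strand.
Inhba: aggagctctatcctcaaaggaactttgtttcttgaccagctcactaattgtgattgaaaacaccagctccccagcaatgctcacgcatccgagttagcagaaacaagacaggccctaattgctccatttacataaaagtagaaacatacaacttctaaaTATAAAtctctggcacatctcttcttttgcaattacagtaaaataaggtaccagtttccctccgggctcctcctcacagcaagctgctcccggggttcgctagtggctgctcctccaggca
Inhbb: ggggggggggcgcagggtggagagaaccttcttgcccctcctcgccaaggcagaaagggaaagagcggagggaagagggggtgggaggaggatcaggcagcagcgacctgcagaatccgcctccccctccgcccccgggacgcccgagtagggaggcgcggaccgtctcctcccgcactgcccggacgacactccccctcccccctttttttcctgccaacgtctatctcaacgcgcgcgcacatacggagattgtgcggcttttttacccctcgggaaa
The Inhba window held TATAAA, beginning 91 bases before the start, and 5 CpG dinucleotides. The Inhbb window held none of the motifs searched and 23 CpG dinucleotides. The windows of the subunits thus shared no motif match, and no match says only that those letters are not in the window.

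Fstl3, the activin antagonist, was lower with its ligands and gave 126, 58.7 and 165 (KC2) and 109, 93.5 and 91.5 (KC3) against 385, 427 and 392 (KC1) and 425, 462 and 397 (KC4). Its gap was -1.91. Fst, the other antagonist, was no member, since KC3 (9.04 ± 0.06) lay between KC1 (8.37 ± 0.20) and KC4 (10.86 ± 0.19) while KC2 was at 5.13 ± 0.44. Ccn2, a matricellular protein and target of TGF-beta and YAP signalling, gave 1625, 1606 and 1571 (KC2) and 2176, 2173 and 2086 (KC3) against 4204, 4369 and 4369 (KC1) and 4809, 4769 and 4543 (KC4), and its gap of -1.01 was the smallest of all lower members. Its arrays within a line differed by little, so that the sides were apart on every array. Of the 40 measured genes of the TGF-beta, activin and BMP list, 0 were higher and 2, Inhba and Inhbb, were lower, and the list's median difference was -0.10. Receptors and Smads of the list did not meet the rule. Tgfbr2, for example, had signals of 9514 ± 488 (KC2) and 10557 ± 270.1 (KC3) against 9208 ± 196 (KC1) and 10973 ± 924 (KC4).

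Actin, myosin and filament genes made 8 members, 7 of them lower in KC2 and KC3. Acta1, the alpha actin of skeletal muscle, gave 101, 57.5 and 81.4 (KC2) and 26.6, 14.5 and 63.9 (KC3) against 567, 561 and 541 (KC1) and 1323, 1297 and 1137 (KC4). Myh10, the heavy chain of nonmuscle myosin IIB, gave 74.0, 15.2 and 12.9 (KC2) and 16.9, 13.2 and 19.7 (KC3) against 187, 179 and 176 (KC1) and 259.9, 290.2 and 222 (KC4). For both genes KC1 and KC4 stood above every array of the other lines. Each had a KC3 array at the floor, and Myh10 also had KC2 arrays there (15.2 and 12.9). The gap of Myh10 was -2.76, and 1.43 in size with a floor of 64. Its other probe set was at the floor in every line. Vim, the intermediate filament protein of mesenchymal cells, gave 101, 148 and 81.1 (KC2) and 701, 669.9 and 867 (KC3) against 4052, 3875 and 3783 (KC1) and 13787, 11873 and 13044 (KC4). Its 4 lines were all apart, in the order KC4, KC1, KC3 and KC2, and its 3 probe sets gave gaps of -2.40, -2.74 and -2.55. Myl7, an atrial myosin light chain, had a gap of -1.88 and line means of 5.88 ± 0.84 (KC2) and 6.32 ± 0.44 (KC3) against 8.19 ± 0.07 (KC1) and 11.32 ± 0.06 (KC4), KC4 being well above KC1. Mical1, an enzyme that oxidises actin, had a gap of -2.76, Nexn, an actin-binding protein, -1.04, and the vesicle motor Myo5c -1.03. Nexn fell under the minimum with every change of floor and scaling (0.82 to 0.94 in size) and Myo5c with a floor of 64 (0.19). The slow-muscle light chain Myl3 was the member of this kind that was higher, with a gap of 1.26 and line means of 6.03 ± 0.48 (KC2) and 6.02 ± 0.17 (KC3) against 4.59 ± 0.46 (KC1) and 4.75 ± 1.30 (KC4), of which the high side was at low signal. The other probe sets of Myl3 were at or near the floor in every line and did not separate the sides.

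**Figure D3:**
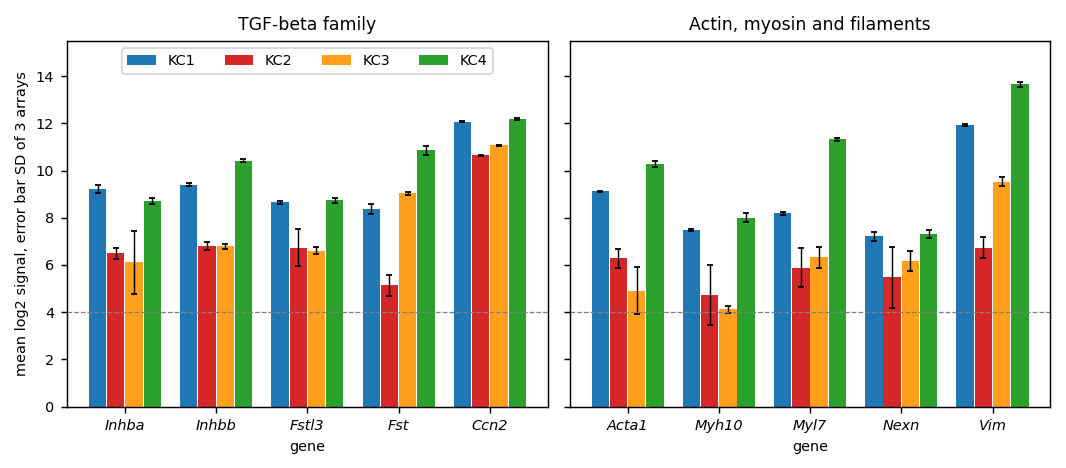
Mean log2 signal per line (bars, y axis from 0, error bars SD of 3 arrays, floor of 4 dashed) of activin-related genes and Ccn2 (left) and of actin, myosin and filament genes (right), with Fst shown as a gene that is no member. KC2 and KC3 lie under KC1 and KC4 for all genes drawn except Fst, where KC3 lies between KC1 and KC4.

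Signalling genes inside the cell numbered 16, of which 12 were lower. Plcb4, the phospholipase C that acts behind Gq-coupled receptors, had the largest gap of the lower members at the floor of 16 and gave 19.9, 15.1 and 12.9 (KC2) and 30.1, 14.9 and 22.3 (KC3) against 418, 451 and 352 (KC1) and 298, 383 and 460.4 (KC4). No array of KC2 or KC3 exceeded 30.1 and none of KC1 or KC4 was under 298. With a floor of 64 its gap was 2.55 in size, under those of Adam19 (3.43), Syce2 (3.25) and Bex1 (3.02). The gap of -4.08 rests on 1 probe set, because the gene's other 4 had line means of at most 5.29 in every line. Bex1, an adaptor of neurotrophin receptor signalling, gave 12.7, 5.19 and 6.17 (KC2) and 40.7, 34.1 and 48.4 (KC3) against 2460.0, 2599 and 2461 (KC1) and 468, 572 and 517 (KC4), and its gap was -3.67. KC2 was at the floor on all 3 arrays and KC3 a little above it. Others that were lower were Grb14, which binds and inhibits the insulin receptor (gap -1.78), the Ras-responsive phospholipase Plce1 (-1.31), the kinase Lrrk2 (-1.29) and the mTORC1 inhibitor Ddit4l (-1.20). Among the 4 signalling genes higher in KC2 and KC3 were Tpd52l1 with a gap of 1.75, Dok2, an adaptor that dampens Ras signalling behind tyrosine kinases, with 1.48, and the calcium-binding Cabp2 with 1.36. Dok2 gave 3806, 3401 and 3068 (KC2) and 2453, 2590.0 and 2105 (KC3) against 884, 836 and 837 (KC1) and 558, 759 and 609.5 (KC4), so that the sides did not overlap.

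Transcription and chromatin genes made 19 members, 3 higher and 16 lower. Tfap2a, the AP-2 alpha factor, gave 1264, 1013 and 1103 (KC2) and 1532, 1529.7 and 1134 (KC3) against 223, 211 and 215 (KC1) and 225, 299 and 188 (KC4). Every array of KC2 and KC3 was at least 1013, and those of KC1 and KC4 were at most 299. Its gap was 2.27, and 1.09 and 1.46 on its other probe sets. Zic5, a zinc finger factor of the Zic family, gave 295, 278 and 292 (KC2) and 558, 556 and 538 (KC3) against 83.0, 68.2 and 80.9 (KC1) and 41.8, 40.6 and 22.6 (KC4) and a gap of 1.90. Esr1, the estrogen receptor alpha, gave 614, 706 and 520.1 (KC2) and 499, 437 and 466 (KC3) against 24.8, 112 and 20.5 (KC1) and 221, 251 and 172 (KC4), and its nearest lines across the sides were KC3 and KC4. Its gap was 1.14, a further probe set gave 1.10, and the remaining one ran very slightly the other way (-0.02) with all 4 lines between 6.14 and 6.53.

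The lower transcription genes were led by zinc finger proteins. Zfp9 gave 25.7, 18.9 and 25.4 (KC2) and 23.1, 41.1 and 19.6 (KC3) against 228, 238 and 238 (KC1) and 237, 174 and 272 (KC4), with a gap of -3.08. Zfp775 (-2.85) and Repin1 (-2.22), a zinc finger protein that binds a replication origin, are next to each other on chromosome 6 and were lower together. Zfp775 gave 13.4, 7.14 and 21.3 (KC2) and 19.1, 6.00 and 10.6 (KC3) against 92.2, 148 and 148 (KC1) and 205, 151 and 187 (KC4). Repin1 gave 38.4, 49.6 and 59.9 (KC2) and 56.5, 27.6 and 18.4 (KC3) against 282, 207 and 198 (KC1) and 404, 418 and 514 (KC4). For each of the 3 genes the sides did not overlap. Mdfic, a regulator that binds myogenic factors, was at the floor on all 6 arrays of KC2 and KC3. It gave 5.56, 3.39 and 3.79 (KC2) and 2.39, 2.91 and 4.32 (KC3) against 1671, 1601 and 1710.2 (KC1) and 75.9, 88.4 and 81.1 (KC4). Its gap of -2.35 (5.1-fold) was therefore set by the floor of 16, and was 0.35 in size with a floor of 64. Vgll3, a cofactor of TEAD factors, had a gap of -1.90, and Smarcd3, a subunit of the SWI/SNF remodelling complex, -1.58. Foxa2, a factor of the lung and gut endoderm, gave 114, 104 and 90.2 (KC2) and 172, 204 and 194 (KC3) against 528, 265 and 751 (KC1) and 626, 506 and 448 (KC4) and a gap of -1.32, with a wide spread in KC1. Foxa2 was the only one of the 28 measured alveolar, club and lung lineage genes to meet the rule, and Smarcd3 the only one of 33 chromatin genes.

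All 4 members tied to cell death and innate immunity were lower. Ripk3, the kinase that starts necroptosis, was at the floor on every KC2 and KC3 array and gave 14.1, 3.92 and 9.56 (KC2) and 3.62, 5.57 and 4.54 (KC3) against 161, 156 and 139 (KC1) and 355, 324 and 364 (KC4). Its gap of -3.25 (9.49-fold) was therefore set by the floor of 16, and was 1.25 in size with a floor of 64. Dram1, a lysosomal protein induced by p53 that promotes autophagy, was also at the floor on all 6 of those arrays. It gave 10.2, 8.26 and 10.1 (KC2) and 4.10, 8.51 and 15.4 (KC3) against 246, 256 and 290.0 (KC1) and 89.2, 70.7 and 27.1 (KC4). Its gap against KC4 was 3.47-fold at the floor of 16, and 0.21 in log2 size with a floor of 64. Pglyrp1, which binds bacterial peptidoglycan, had a gap of -1.06, and Birc3, a ubiquitin ligase of the inhibitor of apoptosis family, had one of -1.01 with line means of 6.64 ± 0.44 (KC2) and 6.99 ± 0.02 (KC3) against 8.00 ± 0.41 (KC1) and 8.28 ± 0.40 (KC4). None of the 23 measured p53 target genes on the list met the rule.

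Surface receptors and their ligands gave 2 higher and 10 lower members. Vldlr, a lipoprotein receptor, gave 41.2, 22.9 and 41.0 (KC2) and 77.7, 33.4 and 67.9 (KC3) against 631, 596 and 638 (KC1) and 250.0, 258 and 244 (KC4) and a gap of -2.16. Of its 5 further probe sets, 3 gave gaps of -2.61, -1.32 and -2.48, another gave -0.88 and the last did not separate the sides. Flt4, the receptor for the lymphatic growth factor VEGF-C, had a gap of -1.12 on its chosen probe set and overlapping lines on the other. The alarmin Il33 (-1.31), the interleukin 5 receptor subunit Il5ra (-1.15), the natriuretic peptide clearance receptor Npr3 (-1.13) and the TAM receptor ligand Gas6 (-1.07) were lower by less, and a further probe set of Gas6 did not separate the sides. Il33 was the only one of 40 cytokine and chemokine genes in the split. The neurotrophin receptor Ngfr (1.30) and the Wnt receptor Fzd9 (1.09) were higher, both at low signal. The further probe sets of Ngfr and of Npr3 did not separate the sides.

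Enzymes of redox balance and detoxification gave 1 higher and 6 lower members. Mgst1, a membrane-bound glutathione transferase, gave 306, 322 and 354 (KC2) and 407, 414 and 449 (KC3) against 2895, 2712 and 2857 (KC1) and 2146, 1995 and 2045 (KC4), a gap of -2.28, and its arrays were tight within each line. Gstk1 (-1.81), another glutathione transferase, the amine-oxidase-like renalase gene Rnls (-1.71), the iron-binding nuclear protein gene Pir (-1.58), the selenium carrier Selenop (-1.17, in size 0.31 to 0.99 under the changes of floor and scaling) and the arylamine acetyltransferase Nat2 (-1.10) were the others. The cytochrome Cyp2c55 was higher (1.21) at low signal. None of the 36 measured genes on the NRF2, glutathione and aldehyde list met the rule, although 13 of them were ordered lower at some gap, an order that 14.9% of all genes had. The list's median difference was -0.34.

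Other metabolic genes made 21 members, 16 of them lower, Mtap included. Fut4, a fucosyltransferase of surface glycans, had a gap of -2.44 and line means of 4.20 ± 0.18 (KC2) and 4.00 ± 0.00 (KC3) against 6.81 ± 0.15 (KC1) and 6.64 ± 0.46 (KC4). The gene's other probe set did not separate the sides. Casd1, which acetylates sialic acids, was the only one of 25 imprinted genes in the split and had a gap of -2.01, and -0.65 on its other probe set. The ceramide kinase Cerk and the glycogen-targeting phosphatase subunit Ppp1r3b were at the floor on all 6 arrays of KC2 and KC3. Their gaps of -2.23 and -1.78 were therefore set by the floor of 16, and were 0.23 and 0.44 in size with a floor of 64. Among the 5 that were higher were the vesicular dipeptidase Dpp7 (1.64), the peroxisomal oxidase Acox2 (1.37) and the sarcosine dehydrogenase Sardh (1.17, and 0.28 on its other probe set).

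Transporters and channels gave 2 higher and 3 lower members. Abcc3, which exports conjugated organic anions, gave 2012, 2267 and 2345 (KC2) and 690.2, 476 and 412 (KC3) against 168, 153 and 154 (KC1) and 141, 122 and 90.8 (KC4). Both lines of the high side exceeded KC1 and KC4 on every array and were themselves far apart, and the gap was 1.70. Slc36a4, an amino acid transporter, gave 32.7, 10.3 and 47.8 (KC2) and 21.2, 13.6 and 10.4 (KC3) against 296, 213 and 359.9 (KC1) and 286, 286 and 251 (KC4) and a gap of -3.23. Genes of cilia were mixed in direction, with Cfap69 (1.97), Ccdc114 (1.14) and Pkhd1 (1.09) higher and Bbs7 (-1.18) and Tmem218 (-1.03) lower. In protein folding and membrane traffic, Exoc3l4, related to an exocyst subunit, was higher with 2079, 2552 and 2222 (KC2) and 1798, 1888 and 1629.8 (KC3) against 244, 218 and 217 (KC1) and 429.6, 355 and 364 (KC4), and 5 genes were lower, among them the co-chaperones Dnajc12 (-2.20) and Dnaja4 (-1.39) and the signal peptidase subunit Sec11c (-2.11). Exoc3l4 did not overlap between the sides and had a gap of 2.21. The other probe set of Sec11c gave -0.77, and those of Dnaja4 gave -1.10 and -0.10.

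Genes of meiosis and the germline were among the lower members. Syce2, of the central element of the synaptonemal complex, gave 99.3, 81.8 and 77.4 (KC2) and 66.0, 49.1 and 65.8 (KC3) against 953, 858 and 903 (KC1) and 897, 779.7 and 776 (KC4). Every KC2 and KC3 array was at most 99.3 and every KC1 and KC4 array at least 776, for a gap of -3.25. The germline Tudor protein Tdrkh had a gap of -1.03. Prom2 (gap 2.05), which shapes plasma membrane protrusions, Gm3336 (1.87), Gm5785 (1.65) and Lipo3 (-3.44), of the acid lipase family, completed the genes with the largest gaps. Lipo3 gave 49.1, 23.3 and 37.6 (KC2) and 20.2, 9.40 and 34.7 (KC3) against 683, 697 and 721 (KC1) and 335, 424 and 383 (KC4). Gm5785 was at the floor on all 6 arrays of KC1 and KC4, so its gap was set by the floor of 16, and was 0 with a floor of 64.

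Over all 140 members the median gap was 1.33 for the higher and -1.48 for the lower genes. A gap of at least 2 was reached by 5 higher and 28 lower members, and one of at least 3 by 2 and 8. On the low side at least 1 array was at the floor for 13 of 32 higher and 46 of 108 lower members, so for these the size of the gap depends on the floor. With a floor of 64, 49 of the 140 fell under the minimum, among them Gm3336, Gm5785, Dpp7, Cabp2, Ngfr, Myl3, Cyp2c55, Ccdc114, Fzd9 and Pkhd1 of the higher genes named here and Zfp775, Mical1, Fut4, Mdfic, Cerk, Dram1, Ppp1r3b, Rnls, Smarcd3, Il33, Bbs7, Selenop, Il5ra and Npr3 of the lower ones, besides Cdh3, Nexn, Col15a1 and Myo5c given above. A total of 8 members fell under it with each of the 4 changes of floor and scaling. Members that kept it with a floor of 64 but not with arrays centred on their median included Birc3 (0.80 in size), Gas6 (0.89), Ccn2 (0.80) and Flt4 (0.95). Of the 4 changes, Birc3 and Gas6 kept it only with the floor of 64. The members with the smallest gaps were Mgat4a (1.03) and Tcp11l2 (1.02) among the higher and Birc3 (-1.01) and Ccn2 (-1.01) among the lower. Just outside the minimum were Tst (0.995) and Bst1 (0.991) on the higher side and Hspb2 (-0.9997) and Flrt3 (-0.997) on the lower. All arrays of KC2 and KC3 lay on 1 side of all arrays of KC1 and KC4 for 125 of the 140 members, and for 7.34% of all genes. Genes that met the rule in either direction were 0.77% of all genes. The same rule with KC1 and KC3 set against KC2 and KC4 chose 86 genes.

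**Figure D4:**
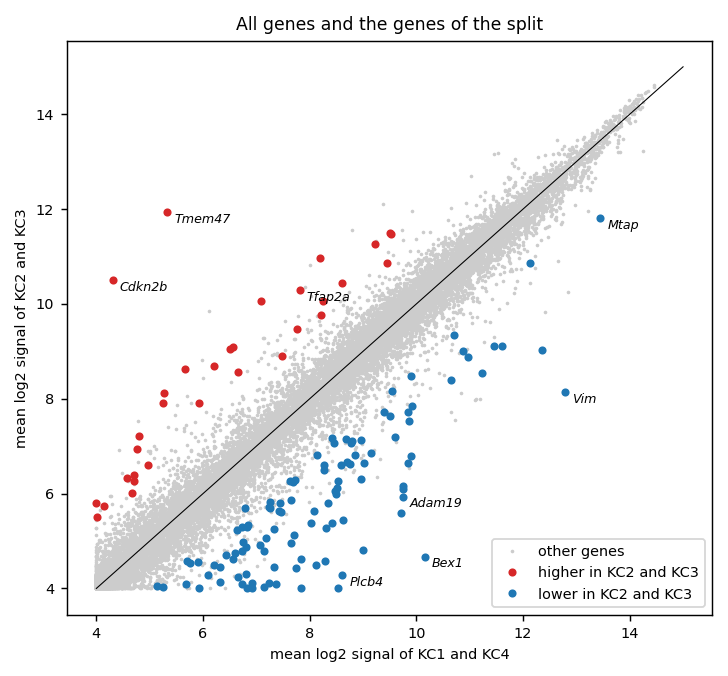
Mean log2 signal of KC2 and KC3 (y axis) against that of KC1 and KC4 (x axis) for all 18193 genes, with the 32 higher members in red, the 108 lower members in blue and the line of equality. Cdkn2b and Tmem47 stand farthest above the line, and many blue points lie near the floor of 4 on the y axis.

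The choice was repeated with the arrays of 1 replicate number left out and read on the 4 left-out arrays, 1 per line. Of the genes chosen as lower, between 78.6% and 91.1% had the same order of sides on the left-out arrays, and between 57.1% and 73.3% had a gap of at least 1 there. Over all genes, between 12.4% and 18.3% had that order and between 0.731% and 1.2% that gap. For genes chosen as higher the shares were 67.3% to 93.8% and 38.5% to 75%, against 13.7% to 16.2% and 0.324% to 0.588% of all genes. The left-out arrays came from the same 4 lines, so this bears on arrays and not on further tumours. Arrays of a line were close, so genes chosen for a wide gap were bound to keep it more often than all genes. These shares therefore describe how arrays repeat each other and lend no support to the split.

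Probe sets that the rule did not use gave a separate reading of 65 members. Of 109 such probe sets, 41 separated the sides in the same direction by at least 1 and 35 by less, and for 32 the lines of the sides overlapped. In 28 of those 32 no line mean exceeded 6.5 on the log2 scale. Only the Esr1 probe set named above ran the opposite way. These probe sets were hybridised with the same RNA, so they repeat the measurement of the transcript and not the biology. A total of 11 members, among them Mical1, Vldlr, Vgll3 and Rnf217, rest on probe sets whose design can match more than 1 transcript.

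KC2 and KC3 also differed from each other. The gap is set by the nearest pair of lines, so a difference within a side enters it, and the members' shares below depend on the rule and are given as a description. With limma, 1972 of 18193 genes (10.8%) had an adjusted p under 0.05 and a difference of at least 1, and 19 of the 140 members (13.6%) did, 6 higher and 13 lower in KC2 than in KC3. For Vim, KC2 minus KC3 was -2.80 (SE 0.19, limma, adjusted p = 4.07e-06), so KC3 carried more of this transcript than KC2 although both lay under KC1 and KC4. Dnaja4, a co-chaperone, differed by -1.92 (SE 0.09, limma, adjusted p = 4.03e-07) and AA414768, an X-linked gene, by -2.01 (SE 0.16, limma, adjusted p = 1e-05). With a floor of 64 these last 2 calls were lost (0.00 for Dnaja4 and -0.21 for AA414768), and that of Dnaja4 also with the mean of its probe sets (-0.66, adjusted p = 0.0901). Abcc3 was higher in KC2 than in KC3 by 2.10 (SE 0.20, limma, adjusted p = 3.34e-05). Cdkn2b itself differed by 0.01 (SE 0.20, limma, adjusted p = 1). The median absolute difference between KC2 and KC3 was 0.38 over the members and 0.36 over all genes.

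KC1 and KC4, which also differ in metastatic label, differed in 1008 genes (5.54%) and in 29 of the 140 members (20.7%), 15 higher and 14 lower in KC1. Mdfic was higher in KC1 by 4.35 (SE 0.05, limma, adjusted p = 5.92e-10) and Myo5c by 4.21 (SE 0.34, limma, adjusted p = 2.38e-05). Tmem47, at the floor in KC4, was higher in KC1 by 2.66 (SE 0.11, limma, adjusted p = 5.19e-07), but by 0.66 and no longer past the minimum difference with a floor of 64. Myl7 was lower in KC1 by 3.12 on the log2 scale (KC1 minus KC4 -3.12, SE 0.37, limma, adjusted p = 0.000264), and Esr1 gave -2.46 (SE 0.54, limma, adjusted p = 0.00868). Of the activin genes, Inhbb gave -1.03 (SE 0.09, limma, adjusted p = 4.46e-05), although not past a difference of 1 when the mean of its probe sets was used (-0.70, adjusted p = 0.087) or without KC1 replicate 1 (-0.996) or KC4 replicate 1 (-0.990). The median absolute difference was 0.45 over the members and 0.26 over all genes. The members had to lie above the floor on 1 side, which all genes did not, so these shares and medians are not matched in signal.

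Calls within both sides were made for 6 members, Bex1, Vim, Casd1, Oaf, Myo5c and Pkhd1, and 98 members were called within neither. Bex1 differed by -1.35 (SE 0.12, limma, adjusted p = 1.59e-05) between KC2 and KC3 and by 2.28 (SE 0.12, limma, adjusted p = 1.52e-06) between KC1 and KC4. Vim differed by -1.72 (SE 0.19, limma, adjusted p = 0.000195) between KC1 and KC4, so all 4 lines were apart. Pkhd1, of the primary cilium, gave 1.83 (SE 0.34, limma, adjusted p = 0.00191) and 1.70 (SE 0.34, limma, adjusted p = 0.005). Of the 6, Vim alone kept both calls under every alternative run. With a floor of 64 the KC2 minus KC3 call was lost for Bex1 (0.00), Myo5c (0.00) and Oaf (-0.68), and the KC1 minus KC4 call for Pkhd1 (0.24). Casd1 lost its KC2 minus KC3 call with the mean of its probe sets (-0.63), with log2(signal + 16) (-0.95) and without KC2 replicate 2 (-0.93). Myo5c lost its KC2 minus KC3 call also with the mean of its probe sets (0.58), without KC2 replicate 1 or 3 (0.90 and 0.94) and without any 1 array of KC3 (1.16, adjusted p = 0.0542 to 0.0587). Oaf lost its KC1 minus KC4 call under 13 alternatives, among them the replicate block (-1.005, adjusted p = 0.0823). In 15 of the 48 calls within a side the call was lost with a floor of 64, and in 13 when probe sets of a gene were averaged. These lines were single derivations, and p-values here measure the spread between arrays within lines, pooled over all 4 lines. A line at the floor on all its arrays, as for Mdfic, Bex1 and Tmem47, added no spread. The SE and adjusted p of such genes therefore depend on the floor.

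**Figure D5:**
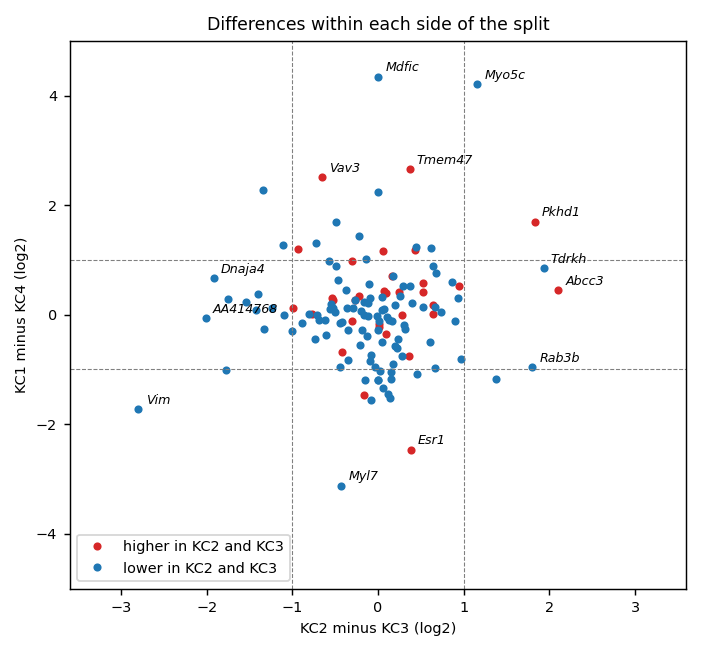
Difference of KC2 minus KC3 (x axis, log2) against KC1 minus KC4 (y axis, log2) for the 140 members, red where higher and blue where lower in KC2 and KC3, with dashed lines at a difference of 1. Most points lie inside the dashed lines, Vim is low on both axes, and Mdfic and Myo5c stand highest on the y axis.

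The members were spread over the autosomes and chromosome X. Chromosome 19 held 11 members among its 611 measured genes (1.8%), chromosome X 11 of 618 (1.78%) and chromosome 10 13 of 865 (1.5%), against 0.772% of all placed genes. Of the X-linked members 10 were lower and Tmem47 alone was higher. Xist, the RNA of the inactive X chromosome, divided the lines in another way, with log2 signals of 7.51 ± 0.39 (KC2) and 13.85 ± 0.02 (KC3) against 7.40 ± 0.25 (KC1) and 13.47 ± 0.07 (KC4). The Y-linked gene Kdm5d read 7.41 ± 0.26, 4.68 ± 0.61, 9.68 ± 0.10 and 4.49 ± 0.47 in that order, so these signals crossed the split. Besides Repin1 and Zfp775, Tpd52l1 and Rnf217 on chromosome 10 (gaps 1.75 and 1.23) and Rnls and Lipo3 on chromosome 19 (-1.71 and -3.44) were adjacent among measured genes, each pair in 1 direction. Mtap and Cdkn2b have 1 measured gene between them and ran in opposite directions.

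Promoter windows of 300 bases from RefSeq were found for 114 of the 140 members, 150 windows in all. The AP-2 letters GCCNNNGGC were in 32.4% of windows of the higher members, 27.4% of those of the lower members, 22.1% of those of all measured genes and 16.6% of all 32851 windows. The windows of members held a median of 12 CpG dinucleotides in the higher and 13 in the lower set, against 7 over all windows, and the AP-2 letters are rich in G and C. The CpG median was not taken over measured genes alone, so it has no matched background. TATAAA was in 5.41% of higher and 14.2% of lower windows (9.77% of measured genes), AP-1 TGANTCA in 10.8% and 6.19% (6.38%), TEAD GGAATG in 16.2% and 15.9% (13.2%) and CCAAT in 40.5% and 39.8% (37.4%). The CArG box was in 2.7% and 1.77% of them (1.35%). The estrogen response element was in none of the member windows (0.0276% of those of measured genes and 0.07% of all windows). These shares were not tested and say nothing of binding.

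Across the 28 gene lists, 10 held at least 1 member and 18 held none. The only higher member in any list was Cdkn2b. The lines were divided by its signal, so its place there was fixed beforehand and says nothing about its list. Ccn2 was the only one of the 41 measured genes of the matrix list in the split, and Adam19 the only one of 37 matrix proteases and inhibitors. The member Col15a1, a collagen, is not on the matrix list. Lists without a member included the mitotic genes (24 measured, median difference -0.29), cholesterol and fatty acid synthesis (26 measured, -0.56, with 10 genes ordered lower at some gap, as were 14.9% of all genes) and the Notch pathway (25 measured, 0.23). The median log2 signal of the cholesterol list was 11.05 (KC2) and 9.75 (KC3) against 10.80 (KC1) and 11.15 (KC4), so by this median KC3 alone stood lower. Of the 140 members, 45 were in the brighter 50% of genes by mean signal. The counts of members stand beside the shares of 0.176% and 0.594% over all genes and were not tested.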

How the data were processed

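RNA of 4 cell lines was hybridised to 12 Affymetrix mouse arrays of 45101 probe sets, 3 per line. The deposited values are linear intensities that the authors scaled; the software and its settings are not given in the sources used here, and the values themselves show that leaving out 2% at each end gives a mean of 500 on every array. Between 15.3% and 20.0% of probe sets lay at or under the floor of 16, which limits low values. Of the probe sets without the 64 controls, 34945 have 1 gene symbol in the platform annotation, 932 several and 9160 are not listed there; only the first were used. Values were floored at 16 and log2 was taken; each gene kept its probe set with the highest mean log2 value. KC2 minus KC3 and KC1 minus KC4 were fitted over all genes in limma 3.58.1 (R 4.3.3) with a coefficient per line and Benjamini-Hochberg adjustment over 18193 genes. Genes were called at an adjusted p under 0.05 and a difference of at least 1. The fit was tested on simulated data in which only brighter genes were changed and no floor was applied. That test does not cover calls near the floor. The members and gene lists were chosen with earlier results of these data known. Named genes are the 15 with the largest gap in each direction, the CDK inhibitor list, up to 3 members per gene list and direction, the 2 genes on either side of the minimum in each direction and members adjacent in the gene order; role groups were made after the members were seen. Alternatives changed the floor, the scaling, the probe set rule, the filter on dim genes, the minimum, the prior, the replicate block and the arrays used. Arrays are not split by any date or batch in the labels, and their number limits the precision. Symbols and gene order come from RefSeq on GRCm38.p6. Members without values of their own are given by counts.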

Additional observations from a re-analysis of the deposited data

How the results depend on the processing

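The 140 members became 91 with a floor of 64, 45 without the dimmer 50% of genes, 33 with a minimum gap of 2 and 62 when the gap was taken between single arrays, each time all from among the 140. The other settings gave between 103 with log2(signal + 16) and 147 with each array centred on its median, and a probe set choice by mean linear signal, added after seeing the data, gave 145. The higher share moved from 22.9% to 35.4% with median centring (52 higher and 95 lower), although the median of all genes shifted by only 0.04. Leaving out each array in turn gave 138 to 148 genes. No setting gave a member in the opposite direction, and 73 of the 140 kept a gap of at least 1 under all 4 changes of floor and scaling and all 12 left-out arrays. With the probe sets of a gene averaged, 111 of the 140 kept such a gap. Those that did not included Plcb4 (0.90 in size), Grb14 (0.92), Sardh (0.73) and Esr1 (0.67). Without the dimmer 50% of genes KC2 minus KC3 gave 1257 calls and KC1 minus KC4 500, because fewer genes were tested. Left-out arrays gave 1915 to 2084 and 967 to 1010 calls. KC2 minus KC3 split 1073 higher to 899 lower, but 739 to 1481 of 2220 with median centring. Deviations of arrays from their line mean, over the brighter 50% of genes, were correlated between arrays of different lines. Same-numbered arrays gave -0.32 to 0.313 (median 0.0265, 3 of 18 pairs over 0.1). Arrays of different number gave -0.334 to 0.352 (median -0.00688, 10 of 36 over 0.1). The numbers were therefore not taken to pair arrays. With the replicate block the counts were 1948 and 992, and 2 of the 48 calls among members were lost (Dmrt2 and Oaf).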

Other observations

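Probe sets without a single gene symbol numbered 10092, and 28 of them met the same rule, 8 higher and 20 lower in KC2 and KC3 (0.277%). The largest gap among them was -2.97, with log2 line means of 4.36 (KC2) and 6.08 (KC3) against 9.42 (KC1) and 9.04 (KC4). Another had 5.73 (KC2) and 7.75 (KC3) against 11.79 (KC1) and 10.55 (KC4). Among the higher ones, the largest gap was 1.78, with 10.51 (KC2) and 10.74 (KC3) against 8.74 (KC1) and 6.83 (KC4). These transcripts stay unnamed here.

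The rule with KC1 and KC3 set against KC2 and KC4 gave 41 genes higher and 45 lower in KC1 and KC3. In the split by Cdkn2b transcript the directions were less even, with 32 higher and 108 lower. The difference between these proportions was not tested. Without a minimum gap, 2651 genes (14.6%) had both KC2 and KC3 above both KC1 and KC4 and 2704 (14.9%) had both under, so at any gap the directions were nearly equal in number.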
